A study of Mus musculus with 4 samples.

Results

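Carbonic anhydrases and bicarbonate transporters of the Slc4 family, the enzymes and membrane proteins that handle the acid made by tumor cells, were followed in MC38 cells under hypoxia and IFN-γ. The 8 genes Car2, Car5b, Car9, Car12, Car13, Slc4a2, Slc4a4 and Slc4a7 were taken by symbol from the count table, and all 8 were found among its 27179 genes. Carbonic anhydrases interconvert CO2 and water with bicarbonate and a proton. Membrane-bound forms do this outside the cell and soluble forms inside it, while Slc4 proteins carry the bicarbonate across the membrane, so that together they set the pH on both sides. Car9 is widely used as a marker of hypoxic tumor tissue, because hypoxia-inducible factors turn on its promoter.

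MC38 is a mouse colon carcinoma cell line, labelled wild type, and it was sequenced without IFN-γ under normoxia (20% oxygen), without IFN-γ under hypoxia (1.5% oxygen), with IFN-γ under normoxia, and with IFN-γ under hypoxia. The oxygen levels come from the study's methods, which also give 5 ng/mL of IFN-γ for 24 h for most of its experiments; how long the sequenced cells were kept under hypoxia is not stated. Each condition had 1 library of poly-A selected RNA from this 1 line, so no value below has a replicate. The question the design poses is what each stimulus changes and whether the combination differs from either alone.

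The libraries held 34302971 to 34537939 counts, and the largest was 1.007 times the smallest, so a gene with 3 counts, taken here as the floor of detection, lies at 0.0869 to 0.0875 CPM (a gene's count scaled to a fixed library total) in all of them. All 10 genes of a hypoxia check list rose with hypoxia and all 6 of an IFN-γ check list rose with IFN-γ, in the directions of the labels. Adm, the least counted of the former, lost its call under 2 of the 4 settings that gave it an adjusted p. Of the 6 IFN-γ check genes 4 (Irf1, Gbp2, Psmb8 and Tap1) also rose with hypoxia, by log2 changes of 0.24, 0.40, 0.31 and 0.16. Tap1 kept this call under 3 of 6 other settings, and Irf1, Gbp2 and Psmb8 each under 5. The labelled colon epithelial origin was hardly visible in the RNA. Of 8 epithelial markers 4 were at 3 counts or fewer in every library, the adhesion molecule Cdh1 and the intestinal factor Cdx2 were at 0, and the 8 together summed to 85 to 113 counts per library. Markers of other cell types summed to 57 to 84 counts over 7 genes, with the macrophage marker Adgre1 at 0.

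Of the 8 genes 6 could be tested, and the largest fitted change among these 6 belonged to Car9 (gene ID 230099). It lies on the plus strand of chromosome 4 at chr4:43506966-43513729 in mm10. Its sequence around the start is shown because the core of the hypoxia response element, ACGTG, was searched on both strands in the 250 bases before each RefSeq start (GRCm38.p6). Capitals mark the match, which reads CACGT on the plus strand and so ACGTG on the other.
Car9 site, chr4:43506996-43507024, plus strand: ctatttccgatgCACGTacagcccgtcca
Car9 flank, chr4:43506776-43506965, plus strand, before the first annotated exon: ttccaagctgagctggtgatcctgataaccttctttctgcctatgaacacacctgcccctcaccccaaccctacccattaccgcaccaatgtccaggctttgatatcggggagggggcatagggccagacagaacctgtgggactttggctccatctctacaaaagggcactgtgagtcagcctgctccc
The match lies at positions -18 to -14 from the RefSeq start, and falls inside the first exon of the longest GENCODE transcript, which begins further upstream. Promoter rows, 8 in all, were found for 6 of the 8 genes, and Car9 alone among them held ACGTG. The motif stood in 5444 of 32851 mouse promoters of that length, or 16.57%. The IFN-γ activated site TTCNNNGAA, which reads alike on both strands, was in none of the 6 and in 7.02% of all promoters. A match of this kind describes letters, and binding was not measured.

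**Figure D1:**
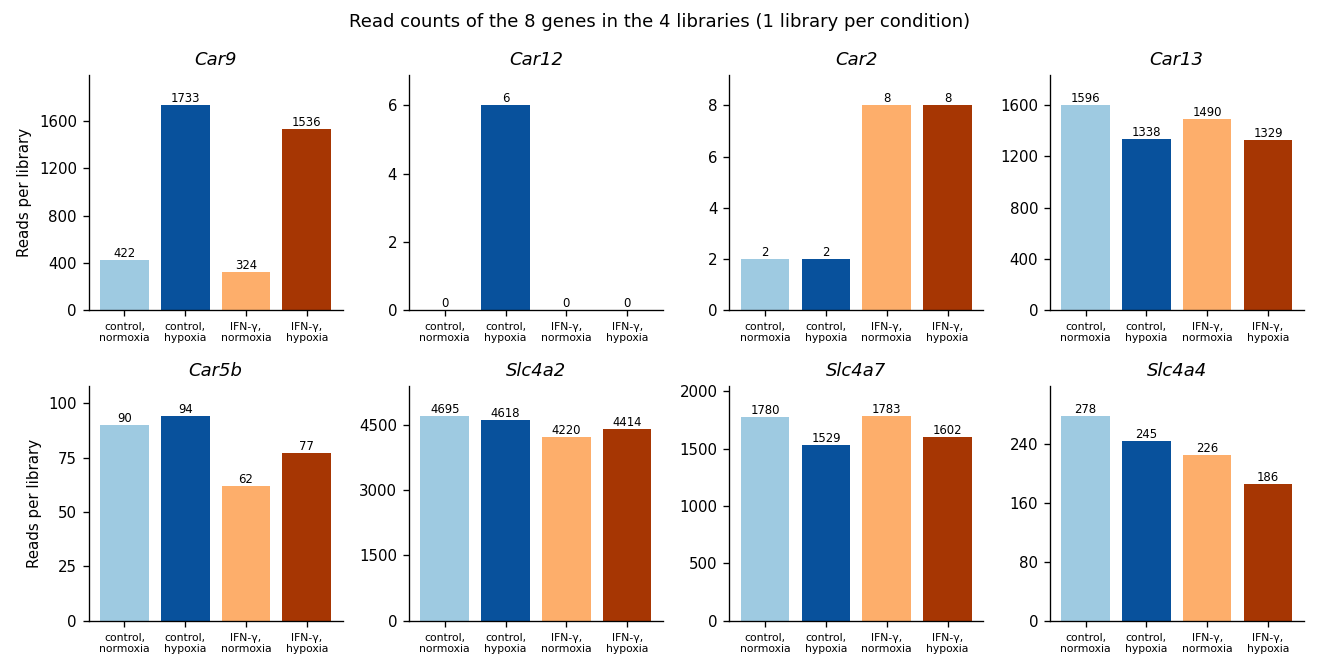
Bars give the reads counted on each of the 8 genes (vertical axis, from 0, with its own range in each panel) in the 4 libraries, 1 library per bar and therefore without error bars. Car9 stood at 1733 and 1536 in the hypoxic libraries against 422 and 324 in the normoxic ones, while Car2 and Car12 never passed 8 counts.

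Compared per length of transcript, the resting cells were rich in one soluble enzyme and one exchanger. In the untreated library under normoxia, Car13, a cytosolic carbonic anhydrase, reached 20.05 CPM per kilobase of exon, and the chloride-bicarbonate exchanger Slc4a2 (AE2) reached 16.3. Car9 followed at 5.29 CPM per kilobase, the sodium-bicarbonate cotransporter Slc4a7 (NBCn1) at 3.38, its electrogenic relative Slc4a4 (NBCe1) at 0.742 and the mitochondrial enzyme Car5b at 0.409. The cytosolic enzyme Car2 and the membrane-bound Car12 stood at or under the floor of 3 counts there. By this measure Car9 came first under hypoxia, ahead of Car13 and Slc4a2, at 21.8 CPM per kilobase without IFN-γ and 19.5 with it. The order of the other genes was as under normoxia. By counts alone Slc4a2 stayed above Car9, at 4618 against 1733 in the untreated library under hypoxia. Without replicates the spread behind this order could not be measured, so neighbours in it are given as values only.

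Of the 8 genes 6 had enough counts to be tested, and among these Car9 was the one called higher with hypoxia. It was counted 422 times in the untreated library under normoxia, 1733 times under hypoxia, 324 times with IFN-γ under normoxia and 1536 times with IFN-γ under hypoxia. Both hypoxic libraries thus lay far above both normoxic ones. The share of all genes with such a separation was not counted, here or for the genes below, so separations are given as values only. In an additive model of oxygen and IFN-γ across all genes, Car9 rose 4.40-fold with hypoxia, a log2 change of 2.14 with a standard error of 0.0885 (edgeR quasi-likelihood test, adjusted p = 7.69e-123), and it passed under each of 6 other settings of normalization, filter, test or model, with adjusted p from 4.75e-44 to 0.00396. The fitted change had rank 3 from the highest among the 11489 genes that averaged 50 counts or more. Hypoxia raised 8.21% of the 13580 genes tested and lowered 6.83%. The spread in this model is departure from additivity, estimated with information shared across the 13580 genes. Each gene by itself leaves 1 residual degree of freedom, so the p of Car9 rests on the pooled spread, with little or no weight on its own variability. Its adjusted p varied widely between the settings given above, so its size depends on how that spread was estimated. Variation from culture to culture and an interaction of the stimuli cannot be told apart in that spread.

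Each pair of libraries gave the Car9 change by itself. Hypoxia raised the normalized count 4.11-fold without IFN-γ (exact 95% interval 3.70 to 4.59) and 4.74-fold with IFN-γ (4.21 to 5.37), where the intervals cover counting error only. Only 0.729% of the genes tested were at least 2-fold higher in both pairs, Car9 among them. Of those 99 genes 74 had a promoter row, and 39.19% of the 74 held ACGTG, against 18.49% of 27025 genes with a promoter. The 99 were picked by their hypoxia change from the genes tested, whereas the 27025 include genes too low to test. These shares thus differ in expression as well, and the difference between them was not tested. About 9.29% of the exon bases of Car9 overlap an annotated antisense gene that was not used here, and whether the counting kept the strand is not stated.

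The rise moved the makeup of the whole enzyme family. Over all 16 carbonic anhydrase genes with the prefix Car, Car9 held 18.7% of the counts in the untreated library under normoxia (Wilson 95% interval 17.2 to 20.4, of 2253 counts) and 52.1% under hypoxia (50.4 to 53.8, of 3329). With IFN-γ its share was 15.1% under normoxia (13.7 to 16.7, of 2142) and 47.3% under hypoxia (45.6 to 49.1, of 3245). Car13 held the larger part under normoxia, 70.8% without IFN-γ and 69.6% with it, and 40.2% and 41.0% under hypoxia. Per length the share of Car9 ran in the same order, at 19.3%, 53.3%, 15.8% and 49.0% in the 4 libraries as listed.

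The other membrane-bound enzyme, Car12 (gene ID 76459), also named as a hypoxia-responsive gene in many tumors, was close to absent. It had 0 counts in 3 libraries and 6 in the untreated library under hypoxia. Against the floor of 3 counts per library, the 6 counts are 2.004-fold higher with hypoxia without IFN-γ, a ratio that takes the 6 as exact. The counting interval for this pair began lower, at 1.18-fold, and had no upper limit. Once counts were halved its lower limit on the log2 scale was -1.27, so that it held 0. With IFN-γ both libraries were at 0. Counts this low did not enter the test. A difference in Car12 was not detectable at this depth in the cells given IFN-γ.

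Of the enzymes inside the cell, the abundant Car13 (gene ID 71934, chr3:14641727-14663002, plus strand) was lower under hypoxia by a small margin. Its counts were 1596 under normoxia and 1338 under hypoxia without IFN-γ, and 1490 and 1329 with IFN-γ. Both hypoxic libraries were below both normoxic ones. Its log2 level fell by 0.21 (standard error 0.0756, edgeR adjusted p = 0.0419), a call that none of the 6 other settings kept (adjusted p from 0.0503 to 0.494). In single pairs the log2 change was -0.25 (95% interval -0.36 to -0.15) without and -0.16 (-0.27 to -0.06) with IFN-γ.

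Car5b (gene ID 56078), the mitochondrial form, was counted 90, 94, 62 and 77 times, in the order untreated normoxia, untreated hypoxia, IFN-γ normoxia, IFN-γ hypoxia. Both IFN-γ libraries were below both untreated ones, and hypoxia left no separation. Its fitted log2 change was 0.18 with hypoxia (standard error 0.244, edgeR adjusted p = 0.699) and -0.39 with IFN-γ (standard error 0.244, adjusted p = 0.528). About 7.66% of its 31-base words occur in other genes, more than for any other of the 8. Car2 (gene ID 12349), the highly active cytosolic enzyme of many epithelia, had 2 counts in each untreated library and 8 in each IFN-γ library. The ratio of 8 to 2 was 3.43-fold after normalization, with an interval of 0.806 to 39.0, and Car2 did not pass the filter on low counts.

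**Figure D2:**
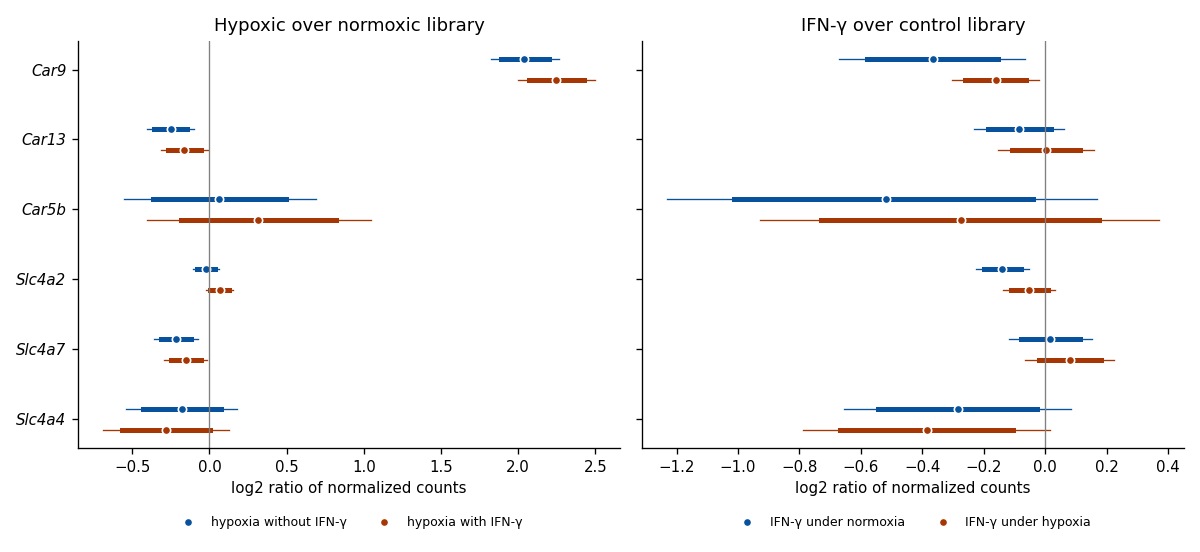
Points give the log2 ratio of normalized counts within each pair of libraries (horizontal axis) for the 6 genes tested, with thick lines for the 95% counting interval and thin lines for the interval from halved counts; the left panel shows hypoxia over normoxia, the right panel IFN-γ over control. Car9 stands apart at 2.04 and 2.24 on the left, and every change on the right lies between -0.52 and 0.08.

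None of the bicarbonate transporters passed the test with hypoxia. Slc4a7 (gene ID 218756), which brings sodium and bicarbonate into the cell without moving net charge, had 1780 and 1529 counts under normoxia and hypoxia without IFN-γ, and 1783 and 1602 with IFN-γ. Both hypoxic libraries were below both normoxic ones. Its single-pair log2 changes were -0.22 (95% interval -0.32 to -0.12) and -0.15 (-0.25 to -0.05), and the fitted change of -0.18 did not pass (standard error 0.0734, edgeR adjusted p = 0.0693).

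Slc4a2 (gene ID 20535) exports bicarbonate in exchange for chloride and had the most counts of the 8, at 4695 and 4618 under normoxia and hypoxia without IFN-γ and 4220 and 4414 with IFN-γ. Its groups overlapped by oxygen but not by IFN-γ, where both treated libraries were the lower ones. The fitted change with IFN-γ did not pass (edgeR adjusted p = 0.531). The fitted log2 change with hypoxia was 0.02 (standard error 0.0597, edgeR adjusted p = 0.862). About 13.7% of its exon bases overlap 2 genes on the other strand, Gm22333, which was not used here, and Fastk, which had 2182, 2341, 2193 and 2484 counts in the same order of libraries. The part of such reads in the Slc4a2 counts was not tested.

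Slc4a4 (gene ID 54403), the electrogenic cotransporter, was counted 278 and 245 times without IFN-γ and 226 and 186 times with it, normoxia first. The lowest value belonged to the library with both stimuli. Its fitted log2 change with hypoxia was -0.23 (standard error 0.148, edgeR adjusted p = 0.338). The library with both stimuli differed from the untreated one by -0.56 on the log2 scale (95% counting interval -0.84 to -0.29), where the same comparison gave 1.88 (1.72 to 2.04) for Car9, -0.25 (-0.35 to -0.14) for Car13 and -0.14 (-0.23 to -0.04) for Slc4a7. It gave -0.07 (-0.13 to -0.01) for Slc4a2 and -0.21 (-0.67 to 0.25) for Car5b. The interval thus left out 0 for 5 of the 6 genes tested, and it did so for 47.6% of all 13580.

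Over the 6 genes tested, hypoxia gave 2 calls, Car9 up and Car13 down, beside 8.21% raised and 6.83% lowered among all genes, and the Car13 call was lost under each of the 6 other settings. The 6 genes had a median log2 change of -0.08, beside a median of 0.00 over all 13580 genes. In single pairs the counting interval left out 0 for 3 of the 6 without IFN-γ and for 4 of the 6 with it. That happened for 45.3% and 45.8% of all genes tested, so these intervals by themselves set no gene apart.

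IFN-γ called none of the 6 genes, by edgeR, by DESeq2 or under any other setting tried. At an unadjusted p under 0.05 in the edgeR test there were 2 of 6 genes, Car9 and Slc4a4, beside 1897 of all 13580. The share was larger among the 6, and the difference was not tested. IFN-γ raised 4.76% and lowered 1.1% of all genes tested. The fitted log2 change with IFN-γ was -0.24 for Car9 (standard error 0.0864, edgeR adjusted p = 0.0894) and -0.33 for Slc4a4 (standard error 0.148, adjusted p = 0.236). For Slc4a2 it was -0.10, for Car13 -0.04 and for Slc4a7 0.05, with edgeR adjusted p of 0.531, 0.923 and 0.900. The median of the 6 was -0.17 beside -0.01 for all genes.

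In single pairs, Car9 was lower with IFN-γ at both oxygen levels. Its log2 change was -0.37 (95% interval -0.58 to -0.15) under normoxia and -0.16 (-0.26 to -0.06) under hypoxia. Slc4a4 gave -0.28 (-0.54 to -0.03) and -0.38 (-0.67 to -0.10), but both intervals reached 0 once counts were halved, as described for the read counts in the processing. The interval left out 0 for 4 of the 6 genes under normoxia, where it did so for 34.9% of all genes, and for 2 of the 6 under hypoxia, where it did so for 37.7%.

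Whether IFN-γ altered the hypoxia change could be described but not tested. The hypoxia change of Car9 was 0.21 higher on the log2 scale with IFN-γ than without (95% counting interval -0.03 to 0.44). Of the 5 genes that never had fewer than 100 counts, the interval left out 0 for 1, Slc4a2, at 0.09 with a lower bound that rounds to 0.00, and it did so for 34.5% of 10443 such genes. All 5 differences lay within the central 95% of those genes, -0.36 to 0.40.

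**Figure D3:**
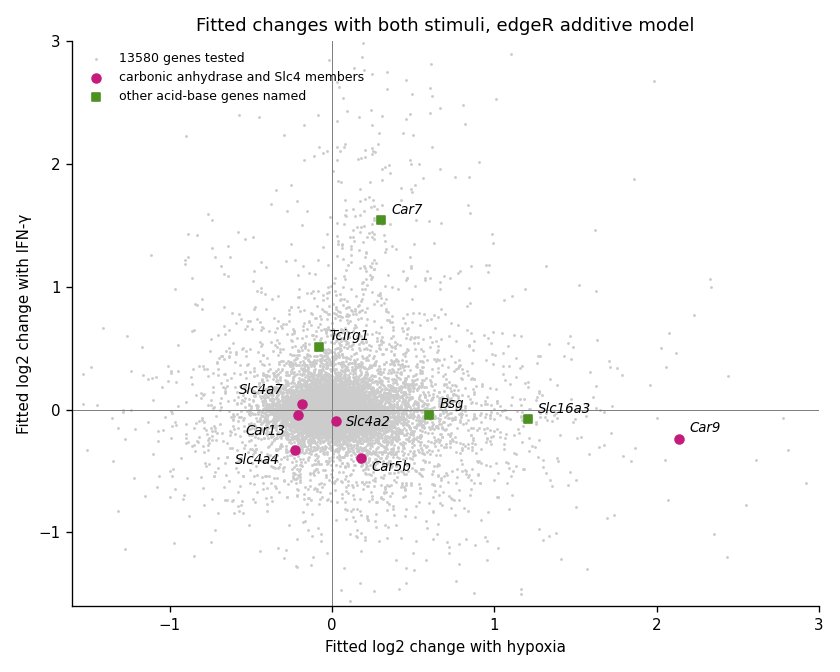
Each point is a gene, with its fitted log2 change with hypoxia on the horizontal axis and with IFN-γ on the vertical axis, for 13580 genes in grey (78 lie outside the axes), the 6 members tested in pink and 4 other acid-base genes in green. Car9 sits far to the right at 2.14 and slightly below 0 on the vertical axis, Car7 stands high at 1.54, and the other members lie near the centre.

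The genes whose pattern was nearest to Car9, by the Euclidean distance of centred log2 CPM over the 4 libraries, were Selenbp1 (0.221), Unc13a (0.281), Myh7b (0.347), Aire (0.5004) and Lman1l (0.505). Selenbp1 was counted 555 and 2057 times without IFN-γ and 477 and 2066 times with it, normoxia first. Aire and Lman1l had under 50 counts in each normoxic library. With 4 libraries and 1 strong axis among them, such likeness is a description of these libraries.

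Most of the remaining acid-base genes did not pass the test, and nor did most of all genes tested. Of 56 genes tested in the acid-base lists outside the 8, hypoxia called 4 and IFN-γ 3, beside 2042 and 796 of all 13580. None of 7 tested bicarbonate and anion exchangers outside the 8 passed with either stimulus, nor did any of 9 sodium-proton exchangers and partners, which expel protons in exchange for sodium. The same was true of both proton-sensing receptors and channels that were tested. Of 19 tested subunits of the V-ATPase, the pump that acidifies vesicles, none passed with hypoxia. Medians of these lists lay between -0.04 and 0.13 with hypoxia and between -0.07 and 0.17 with IFN-γ.

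Within the acid-base lists outside the 8 genes, the largest fitted hypoxia changes that passed belonged to lactate export. Among 5 tested monocarboxylate-proton cotransporters and chaperones 2 rose with hypoxia and none fell, with a list median of -0.04. Slc16a3 (MCT4), which carries lactate out together with a proton, was counted 21073 and 19796 times under normoxia and 48684 and 45561 times under hypoxia, without IFN-γ first, a log2 rise of 1.21 (standard error 0.0475, edgeR adjusted p = 3.19e-135). Its chaperone Bsg (basigin) rose by 0.60 (standard error 0.0473, edgeR adjusted p = 3.25e-34). Both passed under all 6 other settings. Of 9 regulators of bicarbonate cotransport, the kinase gene Oxsr1 rose by 0.18 (edgeR adjusted p = 0.0395, a call kept under none of the 6 other settings) and the calcium channel gene Itpr1 fell by 0.21 (edgeR adjusted p = 0.0205, kept under 4 of the 6).

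With IFN-γ the enzyme family showed its one call outside the 8. Among 5 tested other carbonic anhydrases Car7, a cytosolic form, rose 2.90-fold, a log2 change of 1.54 (standard error 0.197, edgeR adjusted p = 3.41e-13, kept under all 6 other settings). Its counts were 57 and 85 without IFN-γ and 193 and 213 with it, normoxia first, so both treated libraries lay above both untreated ones. None of its 3 promoter rows held the IFN-γ activated site or ACGTG. Of the V-ATPase subunits, Tcirg1 rose by 0.51 (standard error 0.0593, edgeR adjusted p = 6.38e-16, kept under all 6) and Atp6v0a1 fell by 0.23 (adjusted p = 0.0240, kept under none).

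**Figure D4:**
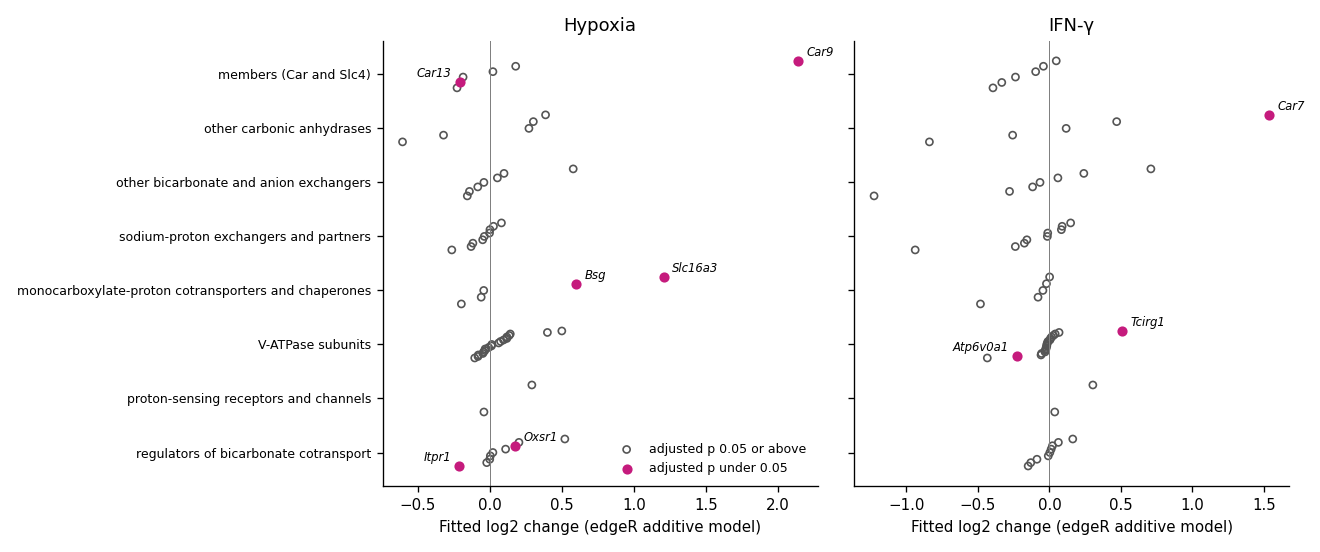
Each point is a tested gene with its fitted log2 change (horizontal axis) with hypoxia on the left and with IFN-γ on the right, grouped by list on the vertical axis, filled where the edgeR adjusted p was under 0.05. Car9, Slc16a3 and Bsg lead on the left at 2.14, 1.21 and 0.60, and Car7 and Tcirg1 on the right at 1.54 and 0.51, with most other points close to 0.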

How the data were processed

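RNA-seq of MC38 cells was analysed in 4 libraries, 1 for each combination of IFN-γ and oxygen. Libraries were strand-specific and poly-A selected per the labels, whereas the study's text speaks of total RNA. Reads were aligned with HISAT2, and the submitters' processing notes name featureCounts and mm10. The annotation release is not given in the sources used here. The authors deposited raw counts per gene, unnormalized. Symbols matched 25275 of 27179 gene IDs through RefSeq (GRCm38.p6), and exon lengths and coordinates came from GENCODE on mm10.

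Low values were mostly even (4317 values of 2 counts, 2023 of 1), and 63.6% of values from 1 to 19 were even against 50.3% of those at 1000 or above, so both mates of many fragments appear to be counted. Intervals cover counting error only and may be too narrow. Halved counts were therefore added as an alternative, chosen after seeing the data.

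Genes passing filterByExpr (minimum 10 counts) were tested with edgeR 4.0.16 (R 4.3.3), TMM, an additive model and Benjamini-Hochberg adjustment over all 13580 genes at 0.05. DESeq2 1.42.0 was an alternative, as were other size factors and filters and a model without the other stimulus. Single pairs are log2 ratios of normalized counts with 0.5 added and Clopper-Pearson 95% intervals. Differences between pairs have Poisson intervals. Scripts were tested on simulated data.

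All 8 genes are named. From each list the up to 3 genes with the largest change per stimulus are named, if they passed the test, moved in the same direction in both pairs and averaged 50 counts or more, with the 5 genes nearest to Car9. The members and lists were chosen with earlier results of these data known.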

Additional observations from a re-analysis of the deposited data

Results flagged for a closer look

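The sign of a change differed between the paired comparisons for 2 genes, and neither difference was tested, since each condition had 1 library. The log2 change of Car13 with IFN-γ was -0.085 (95% counting interval -0.19 to 0.02) under normoxia and 0.00324 (-0.11 to 0.11) under hypoxia, and with total counts in place of TMM both were below 0, at -0.109 and -0.00582. The log2 change of Slc4a2 with hypoxia was -0.0213 (-0.08 to 0.04) without IFN-γ and 0.0662 (0.01 to 0.13) with IFN-γ, and the latter interval held 0 once counts were halved.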

How the results depend on the processing

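No paired analysis was possible because each condition had 1 library, so that no replicate numbers could pair libraries and none could be left out; the additive model compares within each level of the other stimulus. The hypoxia call of Car9 held in all 6 other settings and with halved counts, and no value that passed its test changed sign. Values near 0 that were not called did change sign: with total counts, the single-pair changes with IFN-γ became -0.00582 for Car13 under hypoxia and -0.00742 for Slc4a7 under normoxia. Members called with hypoxia went from 2 to 1, Car9, in each of these 7 settings, as Car13 dropped out (adjusted p = 0.0514 with halved counts). Members called with IFN-γ stayed at 0. Genes called with hypoxia went from 2042 to 548 with DESeq2's Wald test, where the size factors and the genes tested (18812) changed as well, and to 176 without the other stimulus in the model, and genes called with IFN-γ from 796 to 365 and 242. Genes called in the acid-base lists outside the 8 went from 4 to 2 with hypoxia under these 2 settings. Depth limits Car2, Car12 and Car5b, which stayed under 100 counts in every library. The causes were not tested.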
